A study of Mus musculus with 10 samples.

Results

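The 9 transcription factor genes described here were Erg, Fli1, Ets1, Sox7, Sox18, Tal1, Foxf2, Foxq1 and Foxc1, which hold or shape the identity of endothelial cells. They were chosen by name, and all 9 were found among the 14106 genes measured. RNA of brain endothelial cells (BECs) was sequenced in 10 libraries. Of these, 5 came from APP/PS1 mice, which carry the mutant APPswe and PS1ΔE9 transgenes and deposit amyloid-β in the brain, and 5 came from wild type (WT) control mice. All mice were 1 year old females on a C3H/BL6 background. BECs were isolated from the dissociated cortex, after removal of myelin, with microbeads against the endothelial protein CD31. The promoter of the transgenes and the number of mice behind a library were not given in the sources used here, so an SD below is the spread between libraries. In bulk RNA, a change in the share of cells and a change in RNA per cell cannot be told apart.

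An endothelial cell keeps its character through a small circle of transcription factors that bind each other's enhancers and those of vascular genes. The ETS proteins Erg, Fli1 and Ets1 recognise a short GGAA core found at most endothelial enhancers and drive genes of junctions and of quiescence. Sox7 and Sox18 belong with Sox17 to the SOXF group, which shapes arteries and lymphatic vessels. Tal1 is a basic helix-loop-helix factor that works in a complex with Lmo2, Gata2 and E proteins and marks blood and endothelium. The forkhead factors Foxf2, Foxq1 and Foxc1 are tied to vessels of the brain. There, Foxf2 and Foxq1 are enriched in endothelium, but Foxf2 and Foxc1 are also made by pericytes, and Foxc1 by meningeal cells.

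Positions are given on the mouse assembly GRCm38. Erg lies at chr16:95359169-95586593 on the minus strand. Fli1, at chr9:32422204-32542861 on the minus strand, and Ets1, at chr9:32636221-32757820 on the plus strand, are separated by 93359 bases that hold 0 protein-coding genes. The forkhead members also form a cluster, on the plus strand. Foxq1 at chr13:31556134-31560976 is followed after 64839 bases by Foxf2 at chr13:31625816-31631403, and 175229 bases further by Foxc1 at chr13:31806633-31812476, again with 0 protein-coding genes between them. Sox7 lies at chr14:63943673-63950732 on the plus strand, Sox18 at chr2:181669836-181671640 on the minus strand, and Tal1 at chr4:115056426-115071755 on the plus strand.

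The RefSeq promoter table of GRCm38.p6 held starts of 4 members: Erg, Tal1, Foxf2 and Foxc1. The 250 bases before each start were searched on both strands for short core motifs of the members' own families, since these factors are known to bind one another's genes. The letters were GGAAGT for ETS, ACAATG for SOX, TGTTTA for forkhead and AGATAA for GATA, the partner of Tal1. They occurred in 19.7%, 10.7%, 12.03% and 9.99% of the 32851 promoter windows of the same length. The windows that held a match are printed 5′ to 3′ in the direction of the gene, with the matched letters in capitals. That of Foxf2 (chr13:31625566-31625815, plus strand) held an ETS core and overlapped the first exon of a divergent non-coding gene. That of the upstream start of Tal1 (chr4:115056176-115056425, plus strand) held a GATA core on the opposite strand. An internal start of Erg (chr16:95459349-95459598, minus strand) held a SOX core and a GATA core, both on the opposite strand. The other starts of Erg and Tal1 and that of Foxc1 held none of these letters.
Foxf2: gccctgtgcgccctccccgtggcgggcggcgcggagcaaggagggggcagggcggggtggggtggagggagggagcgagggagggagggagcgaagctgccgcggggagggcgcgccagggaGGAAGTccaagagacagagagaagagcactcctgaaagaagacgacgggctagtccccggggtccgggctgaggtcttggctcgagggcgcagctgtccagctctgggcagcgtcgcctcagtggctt
Tal1: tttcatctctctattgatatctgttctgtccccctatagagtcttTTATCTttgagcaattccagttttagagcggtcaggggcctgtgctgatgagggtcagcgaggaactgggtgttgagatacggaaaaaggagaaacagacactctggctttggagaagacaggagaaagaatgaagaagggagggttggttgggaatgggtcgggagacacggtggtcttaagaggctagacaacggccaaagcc
Erg: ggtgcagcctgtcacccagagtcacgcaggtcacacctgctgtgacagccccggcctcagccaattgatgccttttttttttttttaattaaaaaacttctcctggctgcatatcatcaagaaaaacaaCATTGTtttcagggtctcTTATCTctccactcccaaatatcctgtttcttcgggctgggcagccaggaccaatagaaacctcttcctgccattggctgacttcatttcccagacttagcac

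The deposited values are log2 CPM, the log2 of counts scaled to library size, after the authors' batch correction, and they convert back to whole adjusted counts that totalled 22371766 to 126686149 per library. Replicate 1 was lowest in both groups. The members were well measured, with 1937 (Tal1) to 83039 (Ets1) adjusted counts in a library. Libraries with the same replicate number form a pair of 1 control and 1 APP/PS1 library. The correction made the means of the 5 pairs nearly equal, with a range of 0.00378 to 0.0722 log2 CPM for the members, so that within a pair a high APP/PS1 value faces a low control value. The spread of a group is therefore the spread of the within-pair differences, and groups that do not overlap are close to the same fact as a difference of the same sign in all pairs. Endothelial markers dominated, with a summed level of 14.24 to 14.29 log2 CPM among control and 14.29 to 14.34 among APP/PS1 libraries. All 10 listed pericyte markers were also detected, at a summed level of 9.11 to 9.92 in control and 8.15 to 9.18 in APP/PS1 libraries.

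To compare levels between genes, the log2 of the joined exon length in kb was subtracted from log2 CPM, giving a level per length (log2 RPKM). Every member was among the more abundant genes of BECs, from percentile 84.3 of all genes for Tal1 to 98.4 for Sox18, where the median gene was at 2.38 log2 RPKM. The highest level was that of Sox18, at 7.08 log2 RPKM (range over the 10 libraries 6.59 to 7.45). Erg followed at 6.62 (6.57 to 6.68), and these neighbours overlapped. Foxf2 at 6.36 (6.22 to 6.50), Ets1 at 6.29 (6.07 to 6.52), Fli1 at 6.01 (5.91 to 6.11), Sox7 at 5.66 (5.26 to 6.01) and Foxq1 at 5.55 (5.45 to 5.65) log2 RPKM came next, each overlapping its neighbour. Foxc1 at 4.95 (4.86 to 5.04) and Tal1 at 4.34 (4.26 to 4.43) log2 RPKM lay apart from those above them, as did Erg from Foxf2. The order depended in part on the transcript assumed, since Ets1 has long alternative exons and reached 7.03 log2 RPKM, second to Sox18, when the length of the longest transcript was used.

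Among the listed and measured factors of their families, the ETS, SOX and forkhead members stood at or near the top in BECs. Of 26 listed ETS factors 18 were measured, and Erg, Ets1 and Fli1 took ranks 1, 2 and 4 by log2 RPKM, with Elk3, a repressor of the ternary complex group, at rank 3. Of 13 listed SOX factors 12 were measured. Sox18 was rank 1, Sox17 rank 2 at 6.49 log2 RPKM, Sox13 rank 3 and Sox7 rank 4, and the next, Sox9, a factor of astrocytes, was at 1.25. The SOX members with Sox17 and Sox13 thus lay more than 4 log2 RPKM above the rest of the listed SOX factors measured. Of 26 listed forkhead factors 20 were measured, with Foxf2, Foxq1 and Foxc1 at ranks 1, 3 and 4. Foxf1, the close relative of Foxf2, was at rank 2 with 5.56. Tal1 was rank 7 of 13 in a list of its complex partners, its relative Lyl1 and the Id inhibitors of helix-loop-helix factors. Id1, such an inhibitor, led that list at 8.57 log2 RPKM. With the longest transcript as length, Ets1 was rank 1, Erg 2 and Fli1 5 of the ETS factors, Foxp1 moved to rank 2 of the forkhead factors with Foxq1 at 4 and Foxc1 at 5, and Tal1 was rank 9, while Sox18, Sox7 and Foxf2 had the ranks given above.

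**Figure D1:**
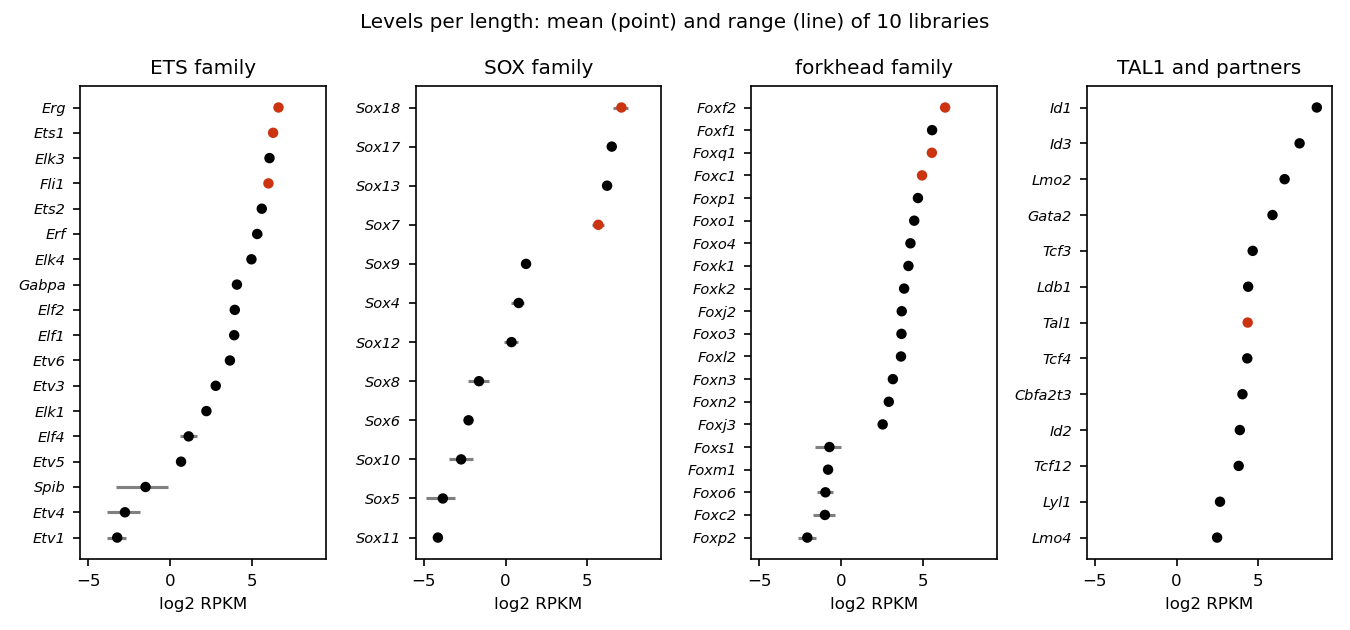
Level per length (log2 RPKM, horizontal axis) of the listed and measured genes of the ETS, SOX and forkhead families and of the Tal1 list. That list holds Tal1, its partners, Lyl1 and the Id inhibitors. Points are means and lines ranges of the 10 libraries, with the 9 members in red. Erg, Sox18 and Foxf2 lead their lists at these exon lengths, and Tal1 sits in the middle of its own.

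The comparison of APP/PS1 with control asked whether the genes that hold endothelial identity differ in level between BECs of the Alzheimer's model and those of control mice. The mean differences of the members were small, but those of Sox7 and Sox18 were loosely bounded. Their 95% intervals ran from −15.1% to 56.2% and from −19.3% to 42.7%. The mean of all 9 was higher in APP/PS1, by 0.04 to 0.21 on the log2 scale, but 0 of the 9 passed the test (limma with the pairs as a term, adjusted p from 0.571 to 0.913). The test called 0% of the 14106 genes, and the smallest adjusted p of any gene was 0.195. At an unadjusted p under 0.05, 1 member (Ets1) was higher in APP/PS1, against 8.03% of all genes in either direction and 2.13% in the higher direction. In 2 members (Ets1 and Fli1) the groups did not overlap, all APP/PS1 libraries being higher, which held for 2.91% of all genes. The same 2 members were higher in all 5 pairs, against 2.99% of all genes. In the opposite direction, 0 members and 4.96% of all genes had groups that did not overlap.

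A mean higher in APP/PS1 was common among genes of this abundance. It was found for 48.2% of all genes, but for 72.6% of the 2295 genes whose mean log2 CPM lay in the range of the members. The median log2 fold change of the members was 0.08, against −0.00377 for all genes and 0.04 for the genes in that range. The count of 9 members with a higher mean fell to 8 without replicate 1, where Sox18 turned, to 8 without replicate 3, where Foxf2 fell to −6.51e-05, and to 8 when libraries were scaled by their totals, where Erg turned. By pair, 7 members were higher in APP/PS1 in pair 1, 2 in pair 2, 8 in pair 3, 7 in pair 4 and 6 in pair 5.

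**Figure D2:**
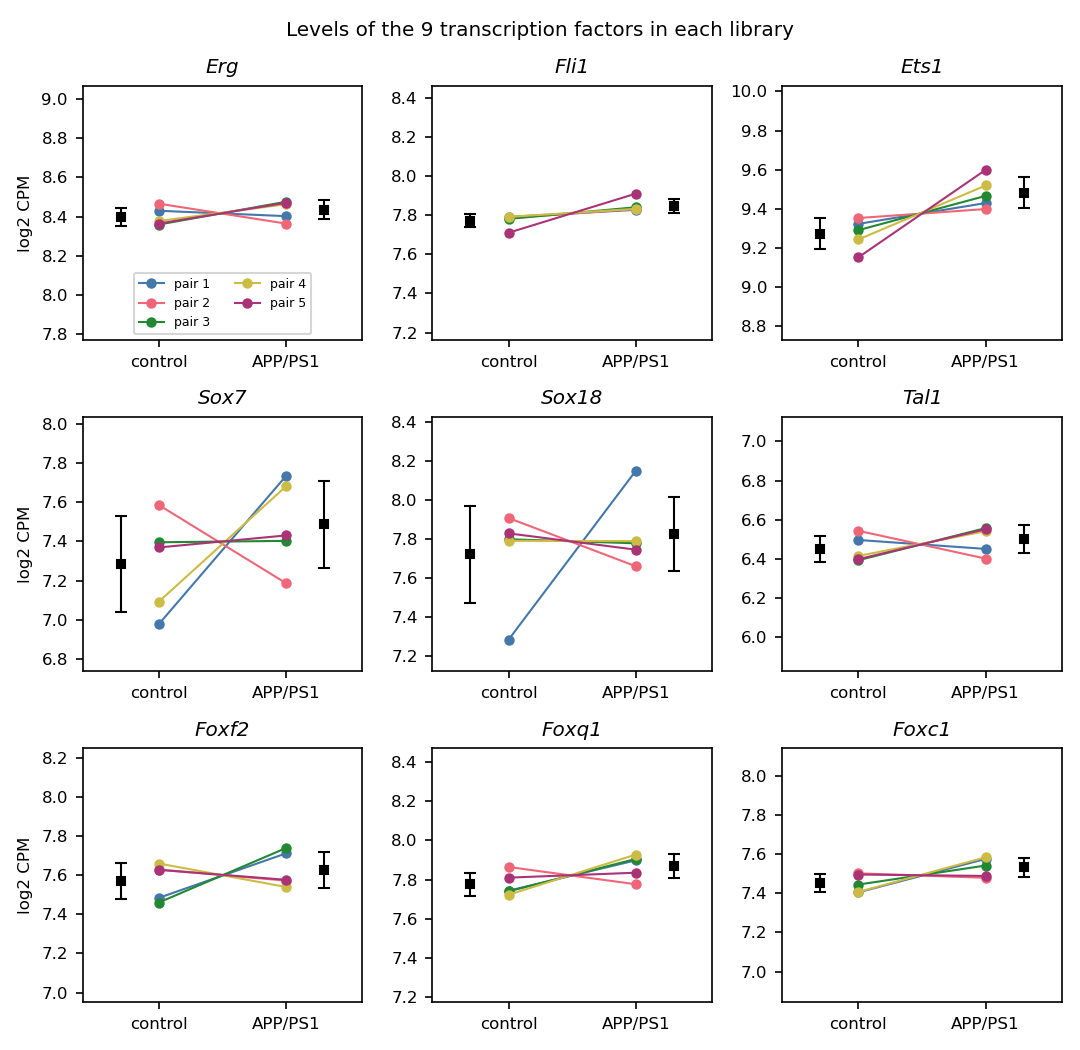
Level of each of the 9 genes (log2 CPM, vertical axes all of the same height) in the control and APP/PS1 library of each of 5 pairs, joined by a line, with the mean and SD of each group (n = 5) as black squares and bars. All lines rise for Ets1 and Fli1, while those of Sox7 and Sox18 cross and are steep in pair 1.

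Ets1, an ETS activator that answers growth and inflammatory signals in endothelium, had the largest mean difference of the members in the fit with pairs, at 0.21 against 0.20 for Sox7, whose difference was the larger with limma-voom (0.222 against 0.197) and without replicate 2, 3 or 5. Its level in control replicates 1 to 5 was 9.32, 9.35, 9.29, 9.24 and 9.15 log2 CPM. In APP/PS1 replicates 1 to 5 it was 9.43, 9.40, 9.47, 9.52 and 9.60 log2 CPM. All APP/PS1 libraries lay above all control libraries, and the differences within pairs were 0.11, 0.05, 0.18, 0.28 and 0.45. Its mean was 9.27 ± 0.08 among the control and 9.48 ± 0.08 among the APP/PS1 libraries (mean ± SD of n = 5). The log2 fold change was 0.21 (SE 0.07, 95% interval 0.04 to 0.38), or 15.7%. The limma p was 0.0253 before and 0.571 after adjustment over all genes. Without the pairs as a term the adjusted p was 0.0456 at the same fold change, a fit that ignores what the batch correction had already taken from the spread. With the pairs or batches as a term, its adjusted p over the alternatives ranged from 0.280 to 0.935.

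Fli1, which shares most endothelial binding sites with Erg, was the steadiest of the members. Its control levels were 7.79, 7.78, 7.78, 7.79 and 7.71 log2 CPM in replicates 1 to 5. The APP/PS1 levels were 7.83, 7.83, 7.84, 7.83 and 7.91 log2 CPM. All APP/PS1 libraries were again above all control libraries, but the gap between them was narrow and the widest pair was that of replicate 5, at 0.20. The log2 fold change was 0.08 (SE 0.0465, 95% interval −0.04 to 0.19, adjusted p = 0.784 by limma), and the interval leaves out a rise of more than 14.2% and a fall of more than 2.61%. Of the transcripts of the provisional class (TEC) annotated within Fli1, 4 were measured, at up to 1.66 log2 CPM in control libraries.

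Erg, the ETS factor most closely tied to vascular quiescence and junctions, had 8.43, 8.47, 8.36, 8.38 and 8.36 log2 CPM in the control libraries. The APP/PS1 libraries had 8.40, 8.36, 8.48, 8.46 and 8.47 log2 CPM. The groups overlapped, with APP/PS1 lower in pairs 1 and 2 and higher in the other pairs. The log2 fold change was 0.04 (SE 0.0526, 95% interval −0.09 to 0.17, adjusted p = 0.903 by limma), so that a change beyond 12.2% upward or 6.31% downward lay outside the interval. Ets2, a widely expressed ETS factor 115482 bases away, differed by 0.05 (adjusted p = 0.885).

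The SOXF genes varied most between pairs. Sox18, a factor of vessel growth and lymphatic fate, had 7.29, 7.91, 7.80, 7.79 and 7.83 log2 CPM in control replicates 1 to 5. Its APP/PS1 levels were 8.15, 7.66, 7.78, 7.79 and 7.75 log2 CPM. Pair 1 held the lowest control and the highest APP/PS1 value, a difference of 0.86, while the other pairs differed by −0.25 to −0.00. The log2 fold change of 0.10 (SE 0.17, 95% interval −0.31 to 0.51, adjusted p = 0.913 by limma) rested on that pair, and without replicate 1 it was −0.09. Replicate 1 also had the smallest totals of adjusted counts and the largest within-pair difference of the pericyte marker sum, −1.76. In pair 4 the pericyte sum differed by −1.36, while Sox18 differed by −0.00141. The part of the totals or of the pericyte markers in the Sox18 result was not tested.

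Sox7, which acts alongside Sox18 in vascular development, had 6.98, 7.59, 7.40, 7.09 and 7.37 log2 CPM in the control libraries. The APP/PS1 libraries had 7.73, 7.19, 7.40, 7.68 and 7.43 log2 CPM. Pairs 1 and 4 were far higher in APP/PS1, by 0.76 and 0.59, pair 2 was lower by 0.40, and the others hardly differed. The log2 fold change was 0.20 (SE 0.178, 95% interval −0.24 to 0.64, adjusted p = 0.845 by limma), from 0.06 without replicate 1 to 0.35 without replicate 2. Pairs 1 and 4 were also those in which the pericyte marker sum was lowest relative to control, −1.76 and −1.36, and the part of other cells in the Sox7 values was not tested. Sox17, the arterial SOXF gene and no member here, differed by 0.44, −0.11, 0.35, 0.23 and 0.10 in pairs 1 to 5, a mean of 0.20 (adjusted p = 0.671).

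The width of the Sox7 and Sox18 intervals came from this scatter. Among the 2295 genes in the members' range of level, the SD of the within-pair differences stood at percentile 97.5 for Sox7 and 97.0 for Sox18. It stood at 16.2 for Fli1, 33.8 for Erg and 32.9 for Foxc1, and at 50.3 to 74.9 for the other members. The Sox7 and Sox18 intervals reach a rise of 56.2% and 42.7%, so these data bound Erg and Fli1 far more tightly than the SOXF members.

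**Figure D3:**
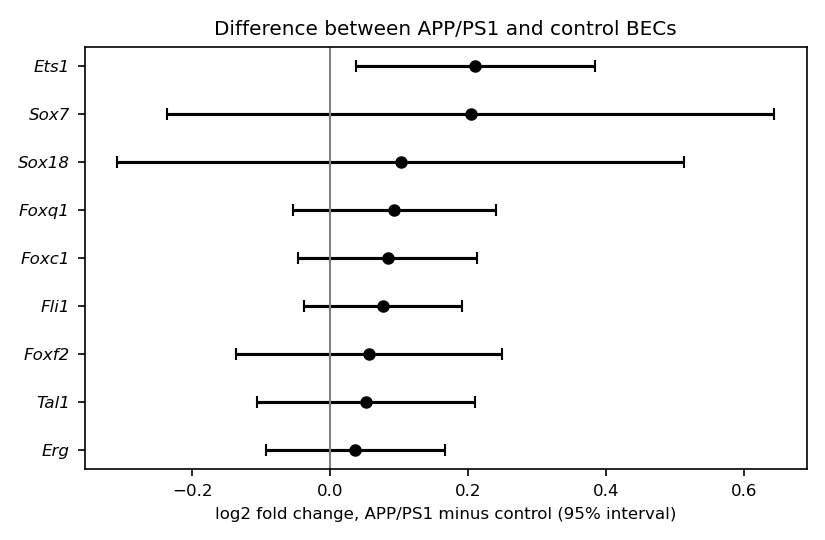
Log2 fold change of the 9 genes (APP/PS1 minus control, horizontal axis) from limma with the pairs as a term, with the 95% interval as a bar. All 9 points are above 0, only the Ets1 interval leaves out 0, and the Sox7 and Sox18 intervals are the widest.

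Tal1, the basic helix-loop-helix member, ranged from 6.39 to 6.54 log2 CPM (median 6.42) among control and from 6.40 to 6.56 (median 6.54) among APP/PS1 libraries. The groups overlapped almost fully, with 3 pairs higher and 2 lower, and the log2 fold change was 0.05 (SE 0.0641, 95% interval −0.11 to 0.21, adjusted p = 0.889 by limma). Its differences by pair were −0.05, −0.14, 0.16, 0.13 and 0.15. These followed those of Erg, and the mean absolute gap of 0.0388 between them was the smallest of all pairs of members. Small gaps were common, since 2055 of 7647 other genes lay within 0.1 of Erg and 1054 within 0.1 of Tal1. Of the partners of Tal1, the bridging factor Lmo2 differed by 0.10 (adjusted p = 0.834) and Gata2 by 0.08 (adjusted p = 0.868). Lyl1, the nearest relative of Tal1, differed by −0.06 (adjusted p = 0.938). The list of partners, Lyl1 and Id inhibitors held 12 measured genes. Of these, 9 had a higher mean in APP/PS1 and 0 passed the test, which called 0% of all genes.

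Of the forkhead members, Foxf2, a factor of the blood-brain barrier, was split between pairs. Its control levels were 7.48, 7.63, 7.46, 7.66 and 7.63 log2 CPM and its APP/PS1 levels 7.71, 7.57, 7.74, 7.54 and 7.58. Pairs 1 and 3 were higher in APP/PS1, by 0.23 and 0.28, and the other 3 lower, for a log2 fold change of 0.06 (SE 0.0782, 95% interval −0.14 to 0.25, adjusted p = 0.901 by limma). The divergent non-coding gene 1700018A04Rik, which starts 24 bases from Foxf2 and whose first exon overlaps the printed window, had a control level of 3.31 and an APP/PS1 level of 3.46 log2 CPM, a difference of 0.14 (adjusted p = 0.784).

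Foxq1, which promotes transcytosis and a brain endothelial programme, ranged from 7.72 to 7.86 log2 CPM among control and from 7.78 to 7.93 among APP/PS1 libraries, higher in 4 of 5 pairs, with a log2 fold change of 0.09 (SE 0.0595, adjusted p = 0.801 by limma). A protein-coding gene on the opposite strand, A530084C06Rik, overlaps Foxq1 and had a control level of 5.45 and an APP/PS1 level of 5.64 log2 CPM. Since the strand setting of the counting was not given in the sources used here, reads of the overlapping genes may not be separable. Foxc1 ranged from 7.41 to 7.50 log2 CPM among control and from 7.48 to 7.58 among APP/PS1 libraries, higher in 3 of 5 pairs, with a log2 fold change of 0.08 (SE 0.0524, adjusted p = 0.794 by limma). Foxq1 and Foxc1 differed alike by pair, with a mean absolute gap of 0.0420, but Foxf2, which lies between them, had gaps of 0.124 and 0.122 to them, wider than that of Erg to Foxq1 (0.0890). Of 7647 other genes, 1186 lay within 0.1 of Foxq1 and 1626 within 0.1 of Foxc1. Ets1 and Sox18 were furthest apart of all pairs of members, at 0.411.

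Genes elsewhere in the genome were ranked by how closely their 5 within-pair differences followed those of each member, among 7647 genes with a mean of at least 4 log2 CPM. Sox18 had no close match, with 0 genes within a mean gap of 0.1, and its nearest were Trim65, a ubiquitin ligase, at 0.105 and Plvap, the diaphragm protein of fenestrated endothelium, at 0.111. Sox7 had 6 genes within 0.1, led by Dusp16, a phosphatase of MAP kinases, and Atp7a, a copper transporter. Ets1 had 41, led by Unc5b, a netrin receptor of vessels, and Jmjd1c, a chromatin factor. The remaining members had small differences, and many genes lay as near. The nearest were Tor1aip2 and Ppm1a for Erg (2055 genes within 0.1), Lpar6 and Dnm2 for Fli1 (1939), and Nrip1 and Kdm5b for Tal1 (1054). For the forkhead members they were Ttc9c and Prkaa1 for Foxf2 (369), Psme4 and Myo1c for Foxq1 (1186), and Rtn4 and Slc16a13 for Foxc1 (1626).

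With the 5 pairs as a term the test called 0% of the 14106 genes. The count of 0 genes passing in each list below follows from that and says nothing particular about the lists. Of the 15 other ETS factors measured, 10 had a higher mean in APP/PS1, 0 passed the test and the median log2 fold change was 0.05. Elk3 differed by −0.01 (adjusted p = 0.978). The largest positive value was that of Erf, an ETS repressor, at 0.16 (adjusted p = 0.849), which was 0.0314 without replicate 4 and 0.292 without replicate 2. The largest negative value was that of Spib, a factor of lymphoid cells at 0.48 log2 CPM in control, at −0.92 (adjusted p = 0.785), and it was −0.36 without replicate 5. Etv1, named after its values were seen, was the 1 of these 15 factors whose groups did not overlap. Such a separation, lower in APP/PS1, held for 4.96% of all genes. Etv1 was at 0.89 log2 CPM in control with a log2 fold change of −0.78 (adjusted p = 0.284), lower in all 5 pairs. Of the 10 other SOX factors, 5 had a higher mean and 0 passed. Sox10, which defines oligodendrocyte lineage and was barely detected (control level −0.55, APP/PS1 level −1.67 log2 CPM), differed most, by −1.12 (adjusted p = 0.195), lower in all 5 pairs. With the 4 batches of the labels in place of the 5 pairs, Sox10 passed the test (adjusted p = 0.0340). The log2 fold changes of such weak genes are drawn toward 0 by the prior count of 3 in the deposited values.

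Of the 17 other forkhead factors, 11 had a higher mean and 0 passed the test. Foxf1 differed by −0.15 (adjusted p = 0.738), while Foxp2, at 1.67 log2 CPM in control, had the largest positive value, 0.59 (adjusted p = 0.593), and Foxs1, known from pericytes, the largest negative one, −0.97 (adjusted p = 0.537). In the list of Tal1 partners, Lyl1 and Id inhibitors, the E protein gene Tcf4 had 0.10 (adjusted p = 0.784). The inhibitor genes Id1 and Id2 had 0.02 (adjusted p = 0.926) and −0.07 (adjusted p = 0.845).

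Of the 23 other endothelial transcription factors measured, 18 had a higher mean in APP/PS1, 0 passed the test and the median log2 fold change was 0.11. Epas1, the hypoxia-inducible factor of endothelium and the most abundant of them, differed by 0.11 (adjusted p = 0.817). Klf4, a flow-responsive factor, was higher in all 5 pairs by 0.06 to 0.42, with a mean of 0.25 (adjusted p = 0.566). Heyl, a Notch target of mural cells at 2.63 log2 CPM in control, was lower in all 5 pairs with a mean of −1.01 (adjusted p = 0.537).

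Genes reported as targets of ETS, SOX or Tal1 factors and genes of the blood-brain barrier were listed too, where again the test called 0% of all 14106 genes. Of the 33 targets, 25 had a higher mean in APP/PS1, 0 passed the test and the median log2 fold change was 0.03. Cdh5, the VE-cadherin gene of adherens junctions, differed by 0.10 (95% interval −0.12 to 0.32, adjusted p = 0.845), Tek, the angiopoietin receptor, by 0.08 (adjusted p = 0.794), and Nos3, endothelial nitric oxide synthase, by 0.06 (adjusted p = 0.905). Cldn5, the main claudin of brain tight junctions, differed by 0.01 (95% interval −0.15 to 0.18, adjusted p = 0.975). The gap junction gene Gja4 had the largest positive value, 0.26 (adjusted p = 0.875), and the apelin receptor gene Aplnr the largest negative one, −0.49 (adjusted p = 0.569). Of the 17 barrier genes, 11 had a higher mean and 0 passed. The glucose transporter gene Slc2a1 differed by −0.06 (adjusted p = 0.902), the transferrin receptor gene Tfrc by 0.22 (adjusted p = 0.733) and the amino acid transporter gene Slc38a5 by −0.43 (adjusted p = 0.577).

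**Figure D4:**
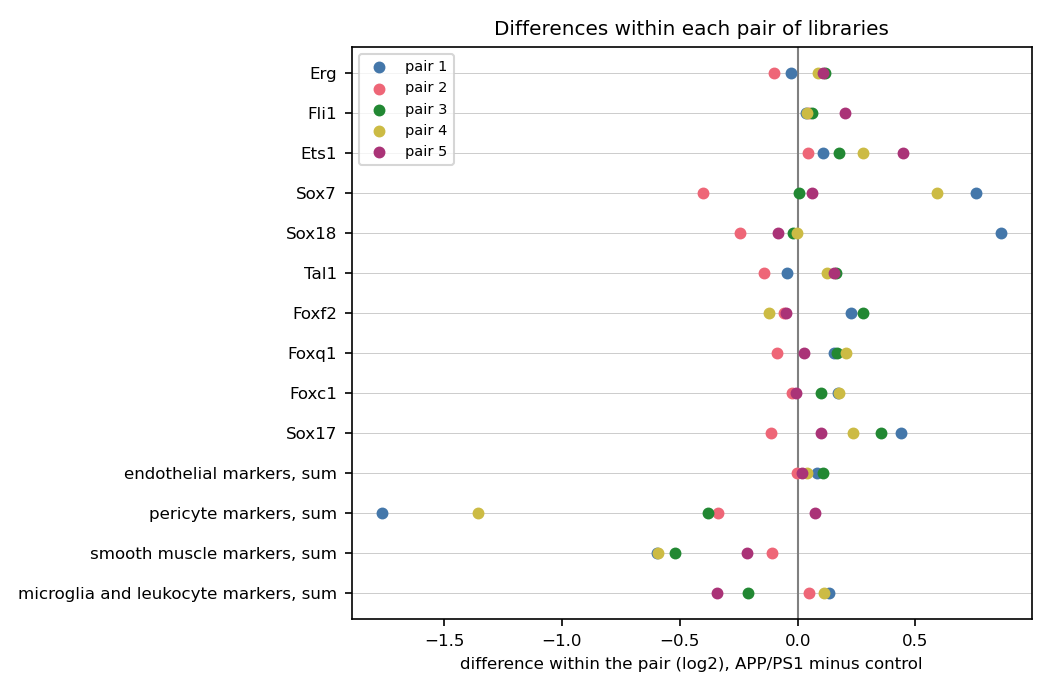
Difference within each of the 5 pairs (log2, APP/PS1 minus control, horizontal axis) for the 9 genes, for Sox17 and for the summed levels of 4 marker lists. Members stay mostly within 0.3 of 0 except Ets1, Sox7 and Sox18, while the pericyte sum reaches −1.76 in pair 1 and −1.36 in pair 4.

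Summed markers of mural cells differed between the groups by more than the members did. The pericyte marker sum was lower in APP/PS1 in 4 of 5 pairs, and its 10 measured genes all had a lower mean, their median log2 fold change being −0.76. The smooth muscle sum was lower in all 5 pairs, at 8.28 to 8.54 log2 CPM among control and 7.94 to 8.17 among APP/PS1 libraries (6 of 7 markers measured). That sum was carried mainly by Mylk, at 7.66 in control with a log2 fold change of −0.20, while the median of the 6 measured markers was −0.77. The endothelial sum was higher in 4 of 5 pairs by at most 0.11. The microglia and leukocyte sum, with 7 of 10 markers measured, was 5.81 to 6.05 in control and 5.71 to 5.95 in APP/PS1 libraries. The oligodendrocyte lineage sum (7 of 8) was 5.34 to 6.25 and 4.91 to 5.63, the fibroblast sum (4 of 7) 3.92 to 4.36 and 3.35 to 3.85, and the choroid plexus sum (3 of 6) 3.06 to 3.45 and 2.28 to 2.75. The astrocyte sum (7 of 7) was 7.42 to 7.71 and 7.49 to 7.79, but it was carried by Gja1, at 7.09 in control and 0.27 higher in APP/PS1 (adjusted p = 0.714), while the other 6 astrocyte markers had a lower mean, and the median of the list was −0.46. Of 7 neuronal markers 2 were measured. Snap25 was at 0.45 log2 CPM in control with a log2 fold change of −1.97 (adjusted p = 0.537), lower in all 5 pairs, and Stmn2 was at 6.65 with 0.02 (adjusted p = 0.979). Of 6 erythroid markers 1, Alas2, was measured, at 2.50 log2 CPM in control and −0.89 (adjusted p = 0.855). The part of these shifts in the small positive differences of the members was not tested.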

How the data were processed

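RNA of 10 BEC libraries was analysed, 5 per group. Per the methods and the labels, the authors used STAR for alignment to mm10, HTSeq for gene counts, filterByExpr to drop weak genes, edgeR for log2 CPM and ComBat (sva) against batch. Versions were not given in the sources used here. The deposited unit is log2 CPM, in a table of 14106 genes whose columns equalled the 10 single-library files. All values converted back to whole adjusted counts (prior count 3, tolerance 0.001), which correction of log values would not leave in general, so the order of the steps is not settled. Adjusted counts are not reads, and no counting error was computed.

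All 14106 identifiers matched GENCODE M21 (GRCm38). With R 4.3.3 and limma 3.58.1, lmFit and eBayes were fitted to the deposited log2 CPM with genotype and the 5 pairs of same-numbered libraries, with Benjamini-Hochberg adjustment over 14106 genes (threshold 0.05, intervals of 95%). The fit was tested on simulated data. The pairs follow the study's batches, 1 control and 1 APP/PS1 library each, while the labels give 4 batches. Deviations of paired libraries from their group means had rank correlations of −0.890 to −0.858 across genes, a sign set by the batch correction. Where nothing states that libraries came from separate mice, p values measure only the spread between libraries. Log2 RPKM is log2 CPM minus log2 of the joined exon length in kb.

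The members and lists were chosen with earlier results of these data known. Named genes were the members, the most abundant gene and the largest positive and negative change of each list, measured neighbours on the chromosome, the 2 genes nearest in within-pair differences, and Sox17, Gata2, Lmo2, Lyl1, Cdh5, Cldn5, Tek and Nos3. Sox9, Sox13, Foxp1, Etv1, single marker genes and overlapping transcripts, the genes in the members' level range and the promoter motifs were chosen after values were seen. The alternatives were no pair term, the 4 label batches, eBayes with a trend, limma-voom on adjusted counts, library totals, median-of-ratios size factors, a prior count of 0.125, only genes averaging at least 1 log2 CPM, the longest transcript and each replicate left out. Python 3.11.15 was used for tables and figures.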

Additional observations from a re-analysis of the deposited data

Results flagged for a closer look

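In 18 groups of 5 libraries (9 members in 2 groups), a library was marked where it stood off from its closest neighbour by more than 0.71 of the whole range, which chance does in about 1 of 20 groups. Fli1 was marked in both groups of replicate 5, as the lowest control value (7.71 log2 CPM) and the highest APP/PS1 value (7.91 log2 CPM). Sox18 was marked in both groups of replicate 1, as the lowest control value (7.29 log2 CPM) and the highest APP/PS1 value (8.15 log2 CPM). Since the batch correction made the pair means nearly equal, the 2 marks of each gene are a single pair seen from both sides.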

How the results depend on the processing

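Without the replicate block, 648 genes and 1 member (Ets1, adjusted p = 0.0456) were called, against 0 of each with the 5 pairs. That fit ignores what the batch correction had taken from the spread, and Sox10, Foxs1, Klf4, Heyl and Aplnr also passed in it. With the 4 label batches as the block, 1 gene was called, Sox10, and 0 members. Leaving out each replicate called 0 to 5 genes, 5 of them without replicate 2, and 0 members. Of 117 alternative values for the members, 113 kept direction and side of the threshold. Dropping the pair term, the 4 label batches, the trend and the minimum mean level leave the fold change itself unchanged. In those settings the direction could not move, and only the side of the threshold could. Library totals shifted the median of all genes to −0.04 and turned Erg (−0.00147), Id1 (−0.0149), Cldn5 (−0.0252) and Pinx1 (−0.0196). Leaving out replicates turned Sox18 (−0.0880 to 0.189) and Foxf2 (−6.51e-05 to 0.0996), and in other genes Elk3 (−0.0607 to 0.0282), Cldn5 (−0.0213 to 0.0700), Gja4 (−0.0204 to 0.495), Slc2a1 (−0.109 to 0.00661), Lyl1 (−0.220 to 0.0161), Pinx1 (−0.0165 to 0.0450) and Gmds (−0.0110 to 0.103). With limma-voom Elk3 was 0.00488. The cause was not tested. The longest transcript as length moved Ets1 to 7.03, Erg to 6.72 and Fli1 to 6.08 log2 RPKM. The members had at least 1937 adjusted counts in every library.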

Other observations

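Of the other measured genes at the members, Pinx1, Tcea2 and Gmds had small mean differences. Pinx1, beside Sox7, had a control level of 2.55 and an APP/PS1 level of 2.57 log2 CPM, a difference of 0.02 (adjusted p = 0.959). Tcea2, a transcription elongation factor gene 8670 bases from Sox18, differed by −0.08 (adjusted p = 0.874), and Gmds, an enzyme of fucose synthesis 7103 bases from Foxc1, by 0.04 (adjusted p = 0.920). A short miRNA gene within Foxf2 on the opposite strand, Gm27516, was higher in APP/PS1 in 5 of 5 pairs by a mean of 0.19 (adjusted p = 0.705) at 0.59 log2 CPM in control, where reads of Foxf2 and Gm27516 may not be separable.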
